A study of Mus musculus with 6 samples.

Results

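The 9 TNF superfamily ligand genes described here are Tnfsf11 (RANKL), Tnfsf4 (OX40L), Tnfsf10 (TRAIL), Tnfsf14 (LIGHT), Lta and Ltb (the lymphotoxins), Tnf, Fasl (FasL) and Tnfsf8 (CD30L). They were chosen by name, as members of one family, and all 9 were found among the 55291 gene symbols of the count table and passed the low-count filter. Levels are in CPM, counts scaled to the effective size of each library.

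The TNF superfamily ligands are mostly type II membrane proteins that assemble as trimers and act on receptors of neighbouring cells, either from the cell surface or after release by a protease. The death ligands FasL and TRAIL kill target cells through receptors with death domains, and in NK cells they complement granule killing. The lymphotoxins, RANKL and LIGHT act on stromal, myeloid and endothelial cells, and OX40L and CD30L costimulate activated lymphocytes.

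The cells sorted were ILC1s, a tissue-resident class of innate lymphocytes, and NK (natural killer) cells, their circulating relatives. Both infiltrated subcutaneous MC38 tumours, grown from a colon carcinoma line of C57BL/6 origin in wild-type C57/BL6 mice. Tumours were taken 14 days after transplantation, and each cell type had 3 libraries, with no other genotype, agent or time. The sources used here do not give the surface markers of the sort or the age of the mice. Nor do they state if each sample was a mouse of its own, and the p-values cover no more than the spread among these samples. Libraries held 16931099 to 20224847 counts.

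The group 1 markers Ncr1 (NKp46) and Tbx21 (T-bet) were at 330.2 to 656 CPM and at 195 to 298 CPM over the 6 libraries. The summed level of 8 group 1 markers ran from 1269 to 1416 CPM in ILC1s and from 1747 to 2781 CPM in NK cells, but its members went opposite ways. Cxcr6 (62.3 to 92.0 CPM in ILC1s, 3.54 to 7.25 CPM in NK cells), Itga1 (130 to 178 CPM in ILC1s, 40.0 to 53.1 CPM in NK cells) and Il7r were higher in every ILC1 library, and Eomes, Itga2, Klrb1c and Ncr1 were lower in every one. The libraries did not separate by cell type alone. Over all genes NK replicate 3 was nearer to ILC1 replicates 1 and 2 than to the other NK libraries, with a Pearson's r across genes (log2 CPM) of 0.977 and 0.971 against ILC1 replicates 1 and 2, and of 0.880 against each of NK replicates 1 and 2. Genes are not independent replicates. ILC1 replicates 1 and 2 and NK replicate 3 held collagen and other matrix genes (1667, 2242 and 1370 CPM summed over 10 genes), against 10.7 and 19.6 CPM in NK replicates 1 and 2. ILC1 replicate 3 held 11165 CPM of 10 macrophage markers, against 236 to 320 CPM in the other ILC1 libraries and 101 to 231 CPM in NK cells. Its own matrix sum of 5956 CPM was made up almost wholly by fibronectin, Fn1, at 5896 CPM. In sorted bulk samples, fewer cells of a type and less RNA per cell cannot be told apart.

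For 5 ligands, Tnfsf11, Tnfsf4, Lta, Tnfsf10 and Tnfsf8, every ILC1 library was higher than every NK library, and for 1, Fasl, every ILC1 library was lower. Each of Tnfsf11, Tnfsf4 and Lta averaged between 3.73 and 3.88 times its NK level, and Fasl averaged 2.38 times more in NK cells. The remaining 3, Ltb, Tnf and Tnfsf14, overlapped between the cell types. Groups without overlap were found for 12.5% of all genes in the higher direction and 13.3% in the lower direction, 25.8% in all. The median log2 fold change (ILC1 over NK) of the 9 ligands was 1.36, beside 0.081 over all genes tested. Without ILC1 replicate 3 the ligands' median was 0.82, and within the 3 matrix-rich libraries 0.81.

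In edgeR's quasi-likelihood test 0 of the 9 ligands had a Benjamini-Hochberg adjusted p under 0.05, where 0.0829% of the 14475 genes tested did (0.076% higher and 0.00691% lower in ILC1s). Without adjustment, edgeR counted 6 ligands higher and 2 lower at a p under 0.05, where 6.95% of all genes were counted higher and 8.82% lower, 15.8% in all. DESeq2 called 5 ligands higher (Tnfsf11, Tnfsf4, Tnfsf10, Lta and Tnf) and Fasl lower, where it called 2.76% of the genes it adjusted higher and 2.87% lower, 5.64% in all. Limma-voom called 0 ligands, where it called 0.111% of genes. Without NK replicate 3, edgeR called Tnfsf4 and Tnfsf10 higher and Fasl lower, among 449 of 14973 genes (250 higher and 199 lower). With no low-count filter, edgeR called 5 of the 9 (4 higher and 1 lower), among 138 of 26185 genes (47 higher and 91 lower). Where no test is named beside them, higher and lower refer to the values of the libraries.

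**Figure D1:**
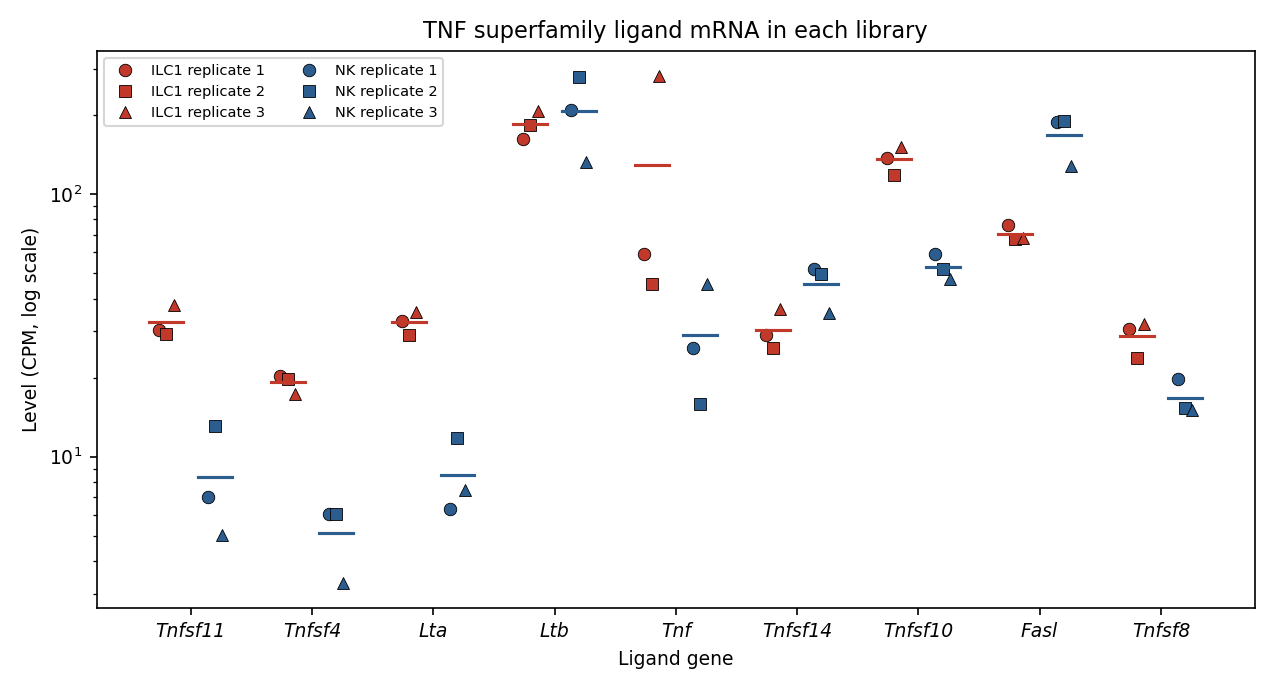
Level of each ligand mRNA in CPM (log scale) in the 3 ILC1 libraries (red, left of each pair) and the 3 NK libraries (blue, right), with replicates 1, 2 and 3 as circles, squares and triangles and group means as lines. Tnf in ILC1 replicate 3 stands apart at 281 CPM, and the red and blue points do not overlap for Tnfsf11, Tnfsf4, Lta, Tnfsf10, Tnfsf8 and Fasl.

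Lymphotoxin alpha (Lta) forms a secreted homotrimer that binds the TNF receptors, and a membrane heterotrimer with lymphotoxin beta (Ltb) that binds the lymphotoxin beta receptor. Lta was at 32.8, 29.0 and 35.5 CPM in ILC1 replicates 1 to 3, against 6.34, 11.8 and 7.45 CPM in NK replicates 1 to 3. The lowest ILC1 library lay well above the highest NK library, and the spread within ILC1s was small (mean 32.4 ± 3.23 CPM in ILC1s, 8.52 ± 2.86 CPM in NK cells, SD, n = 3 each). This gave a log2 fold change of 1.93 ± 0.28 (SE, edgeR adjusted p = 0.103, DESeq2 adjusted p = 1.55e-06). It ranked 60 of 14475 genes by p in edgeR's test.

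Ltb, which anchors the heterotrimer in the membrane, was at 162, 183 and 208 CPM in ILC1 replicates 1 to 3, against 210, 278 and 132 CPM in NK replicates 1 to 3. The lowest of all was NK replicate 3 and the highest NK replicate 2, so the groups overlapped. The log2 fold change was -0.17 ± 0.28 (edgeR adjusted p = 0.785). It turned positive in the 3 matrix-rich libraries alone (0.34, with 1 NK library) and without NK replicate 2 (0.11). With a term for library sets it was 0.38, a value that rests on the same 3 matrix-rich libraries. Ltb was the most abundant ligand mRNA in both cell types when levels were taken per kilobase of exon, at 121 ± 15.3 CPM per kilobase in ILC1s and 136 ± 48.2 CPM per kilobase in NK cells.

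The balance of the lymphotoxin mRNAs did not overlap between the cell types. The ratio of Ltb to Lta, both per kilobase, was 4.49, 5.74 and 5.35 in ILC1 replicates 1 to 3, against 30.2, 21.6 and 16.2 in NK replicates 1 to 3. This ratio was chosen after the values were seen and was not tested. Lymphoid tissue inducer cells are known as producers of lymphotoxin and RANKL. Of their markers, Il22, Il23r, Il17a, Il17f and Ccr6 stayed below 0.25 CPM in every library. Il1r1 was at 12.9, 14.8 and 1.80 CPM in ILC1s and at 0.250, 0 and 10.8 CPM in NK cells, highest in the matrix-rich libraries. Summed over 10 T cell markers, ILC1 libraries held 82.6, 79.7 and 225 CPM and NK libraries 78.9, 72.6 and 60.1 CPM, with 5 of 10 markers higher in every ILC1 library than in every NK library and none at 0 in all libraries. Without ILC1 replicate 3, the library with the most T cell markers, the log2 fold change of Lta was 1.85. The part of T cell RNA in the lymphotoxin values was not tested.

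Tumour necrosis factor (Tnf), an inflammatory cytokine made by macrophages as well as by lymphocytes, was at 58.9, 45.4 and 281 CPM in ILC1 replicates 1 to 3, against 26.0, 15.8 and 45.6 CPM in NK replicates 1 to 3. ILC1 replicate 3 held 5.39 times the mean of the other ILC1 libraries, and NK replicate 3 lay level with ILC1 replicate 2. The mean of 129 ± 132 CPM in ILC1s therefore rests on 1 library (29.1 ± 15.1 CPM in NK cells). The log2 fold change was 2.14 ± 0.84 (edgeR adjusted p = 0.309, DESeq2 adjusted p = 0.0165). Without ILC1 replicate 3 it was 0.82, and within the 3 matrix-rich libraries 0.15.

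The library with the most Tnf was also the one with the macrophage markers. All 10 of those markers were highest in ILC1 replicate 3, among them Lyz2 at 5838 CPM and Csf1r at 1077 CPM, and 6 of 10 were higher in every ILC1 library than in every NK library. The part of macrophage RNA in the Tnf value was not tested. Of the other ligands, none was more than 1.5 times higher in ILC1 replicate 3 than the mean of ILC1 replicates 1 and 2.

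Lta, Tnf and Ltb lie side by side on chromosome 17 of GRCm38, within the major histocompatibility complex. Lta (35203165 to 35205351) and Tnf (35199381 to 35202007) are on the reverse strand with 1157 bases between them, and Ltb (35194439 to 35196320) is on the forward strand with 3060 bases between it and Tnf. No other GENCODE M21 gene is annotated in either gap, and no exon of the 9 ligands overlaps an exon of another gene. The 3 neighbours had separate patterns, with Lta higher in every ILC1 library, Tnf high in 1 library and Ltb overlapping.

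The 250 bases before the RefSeq start (GRCm38.p6, 5′ to 3′ on the gene's strand) are shown for these 3 neighbours, for Tnfsf11, whose profile was the nearest to that of Lta among the 9 ligands, and for Fasl, which went the other way. Capitals mark a simple form of the NF-kappaB motif, GGGA and CC with any 4 bases between them, on either strand.
Lta, chr17:35205352-35205601, reverse strand: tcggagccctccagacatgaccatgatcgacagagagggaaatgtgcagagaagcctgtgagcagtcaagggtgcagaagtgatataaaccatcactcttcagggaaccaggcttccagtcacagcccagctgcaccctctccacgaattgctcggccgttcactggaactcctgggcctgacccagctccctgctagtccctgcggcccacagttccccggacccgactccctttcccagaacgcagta
Tnf, chr17:35202008-35202257, reverse strand: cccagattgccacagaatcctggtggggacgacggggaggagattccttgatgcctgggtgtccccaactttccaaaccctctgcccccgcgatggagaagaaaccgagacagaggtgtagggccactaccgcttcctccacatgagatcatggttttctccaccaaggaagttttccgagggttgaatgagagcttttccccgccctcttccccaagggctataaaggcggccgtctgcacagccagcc
Ltb, chr17:35194257-35194506, forward strand: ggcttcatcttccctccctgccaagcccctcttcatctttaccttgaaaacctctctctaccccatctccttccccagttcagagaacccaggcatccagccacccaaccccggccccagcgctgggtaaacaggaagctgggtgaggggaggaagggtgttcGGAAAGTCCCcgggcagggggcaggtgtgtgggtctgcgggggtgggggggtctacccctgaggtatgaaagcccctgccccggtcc
Tnfsf11, chr14:78308044-78308293, reverse strand: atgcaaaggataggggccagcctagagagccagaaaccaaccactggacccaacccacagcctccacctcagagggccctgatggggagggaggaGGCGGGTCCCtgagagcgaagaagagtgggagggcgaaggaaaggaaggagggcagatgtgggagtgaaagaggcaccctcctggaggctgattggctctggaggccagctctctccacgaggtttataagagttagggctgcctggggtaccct
Fasl, chr1:161788496-161788745, reverse strand: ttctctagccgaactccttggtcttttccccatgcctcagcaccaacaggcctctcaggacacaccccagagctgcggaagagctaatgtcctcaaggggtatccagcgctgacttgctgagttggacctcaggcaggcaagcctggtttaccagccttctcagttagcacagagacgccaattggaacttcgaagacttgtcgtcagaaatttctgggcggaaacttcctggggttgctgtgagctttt

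Promoters were matched for 8 of the 9 ligands. The motif was found in those of Ltb, Tnfsf11 and Tnfsf14, 3 of 8, where 17.6% of all 32851 RefSeq promoter windows of the same length hold it. Ltb has GGAAAGTCCC starting 87 bases before the start and Tnfsf11 has GGCGGGTCCC starting 155 bases before it. The AP-1 motif TGANTCA was found only in Tnfsf14 among the 8 (6.75% of all windows), and the T-box core TCACACC (3.33%) and the RUNX core TGTGGT (14.0%) in none of them. These motifs were searched on both strands, and a match describes the letters alone. Ltb and Tnfsf11, which share the first motif, differed in pattern, whereas Lta and Tnfsf11 had similar profiles and Lta held none of the 4 motifs.

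RANKL (Tnfsf11), the ligand that drives osteoclast formation and acts on dendritic cells and lymph node stroma, was at 30.3, 29.3 and 37.8 CPM in ILC1 replicates 1 to 3, against 6.99, 13.0 and 5.04 CPM in NK replicates 1 to 3. Every ILC1 library was above the highest NK library, and the NK libraries spread 2.59-fold among themselves. Tnfsf11 had a log2 fold change of 1.96 ± 0.38 (edgeR adjusted p = 0.133, DESeq2 adjusted p = 0.000131), and 2.52 within the 3 matrix-rich libraries, where that of Tnfsf4 was 2.55. The gene lies on chromosome 14 (78277445 to 78308043, reverse strand).

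OX40L (Tnfsf4), which costimulates T cells through OX40 and is best known from antigen-presenting cells, was at 20.3, 19.8 and 17.4 CPM in ILC1 replicates 1 to 3, against 6.04, 6.06 and 3.31 CPM in NK replicates 1 to 3. The groups were far apart, and the lowest value of the 6 was in NK replicate 3. Tnfsf4 had a log2 fold change of 1.90 ± 0.31 (edgeR adjusted p = 0.105, DESeq2 adjusted p = 1.70e-05). ILC1 replicate 3, rich in macrophage markers and with 2780 CPM over 8 dendritic cell markers against 510 to 592 CPM in the other ILC1 libraries and 578 to 916 CPM in NK cells, held the least Tnfsf4 of the ILC1s. Outside that library the sum was mostly Itgax, and 4 of the 8 markers were higher in every ILC1 library than in every NK library, among them Xcr1 (2.45, 2.44 and 5.85 CPM in ILC1 replicates 1 to 3, against 0, 0 and 0.288 CPM in NK cells) and H2-Ab1 (91.8, 93.3 and 2171 CPM in ILC1 replicates 1 to 3, against 25.5, 30.4 and 39.8 CPM in NK cells). Of the 7 dendritic cell markers that passed the low-count filter, 3 had a negative log2 fold change, Ccr7, Itgax and Zbtb46. Ccr7 was at 14.1, 12.8 and 16.9 CPM in ILC1 replicates 1 to 3, against 33.6, 35.7 and 15.4 CPM in NK replicates 1 to 3. The part of dendritic cell RNA in the Tnfsf4 values was not tested. Without ILC1 replicate 3 the log2 fold change was 1.96. Tnfsf4 lies on chromosome 1 (161395409 to 161418410, forward strand).

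Among the death ligands, TRAIL and FasL went in opposite directions. TRAIL (Tnfsf10) was at 138, 118 and 151 CPM in ILC1 replicates 1 to 3, against 59.2, 51.9 and 47.6 CPM in NK replicates 1 to 3. The groups were 2.56-fold apart in their means with a similar relative spread (mean 136 ± 16.2 CPM in ILC1s, 52.9 ± 5.90 CPM in NK cells, SD, n = 3 each). The log2 fold change of 1.36 ± 0.15 was the closest of the 9 to edgeR's threshold (adjusted p = 0.0742, rank 19 of 14475, DESeq2 adjusted p = 4.02e-07). It stayed between 1.21 and 1.45 in all 17 alternatives. Tnfsf10 lies on chromosome 3 (27317028 to 27342427, forward strand).

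FasL (Fasl) was at 76.3, 67.4 and 67.9 CPM in ILC1 replicates 1 to 3, against 187, 189 and 128 CPM in NK replicates 1 to 3. The lowest of the NK libraries was replicate 3, still well above the highest ILC1 library. Fasl had a log2 fold change of -1.25 ± 0.19 (edgeR adjusted p = 0.103, rank 70, DESeq2 adjusted p = 8.81e-05), and -0.87 within the 3 matrix-rich libraries. Per kilobase, the ratio of Fasl to Tnfsf10 was 1.51, 1.55 and 1.23 in ILC1 replicates 1 to 3, against 8.60, 9.90 and 7.29 in NK replicates 1 to 3, a ratio chosen after the values were seen and not tested. Fasl (161780689 to 161788495, reverse strand) lies 362278 bases from Tnfsf4 on chromosome 1, with 5 annotated genes between them.

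LIGHT (Tnfsf14), which binds HVEM and the lymphotoxin beta receptor, was at 28.9, 25.9 and 36.4 CPM in ILC1 replicates 1 to 3, against 51.6, 49.7 and 35.2 CPM in NK replicates 1 to 3. ILC1 replicate 3 and NK replicate 3 overlapped, and the other 2 libraries of each group did not. Tnfsf14 had a log2 fold change of -0.58 ± 0.21 (edgeR adjusted p = 0.287, DESeq2 adjusted p = 0.310), and -0.74 without ILC1 replicate 3 (edgeR adjusted p = 0.223). Tnfsf14 lies on chromosome 17 (57189492 to 57194177, reverse strand).

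CD30L (Tnfsf8), the ligand of CD30 on activated lymphocytes, was at 30.6, 23.7 and 32.1 CPM in ILC1 replicates 1 to 3, against 19.8, 15.3 and 15.1 CPM in NK replicates 1 to 3. The groups did not overlap, by a narrow gap between ILC1 replicate 2 and NK replicate 1. The log2 fold change was 0.79 ± 0.20 (edgeR adjusted p = 0.189, DESeq2 adjusted p = 0.0704). Tnfsf8 lies on chromosome 4 (63831308 to 63861347, reverse strand).

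**Figure D2:**
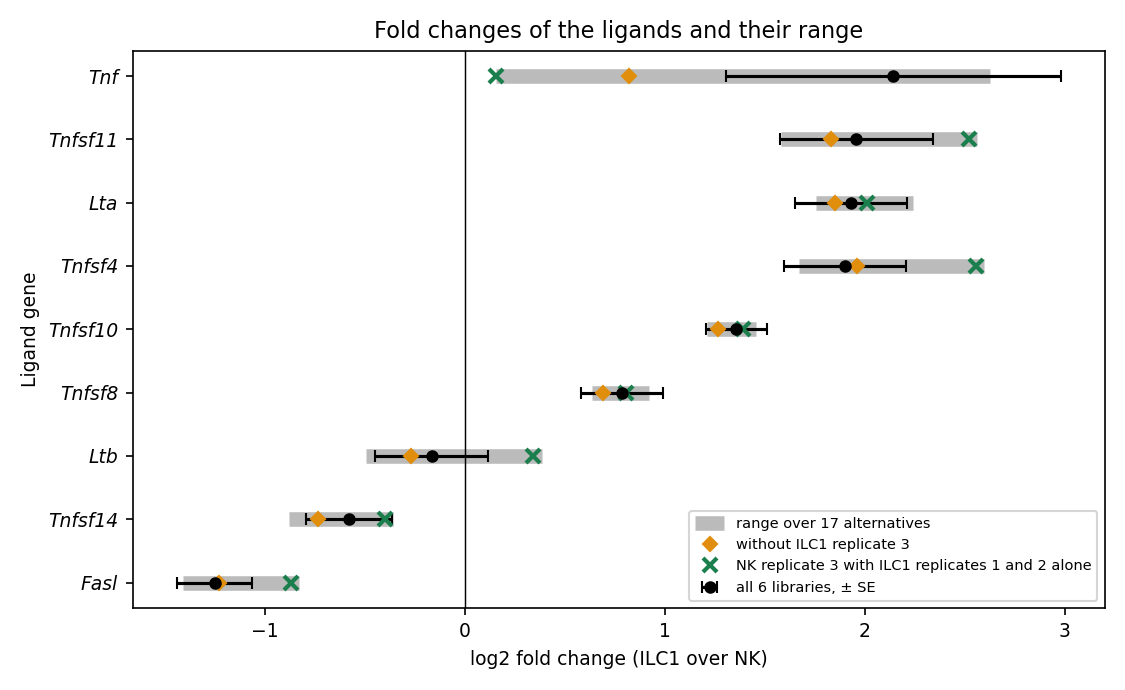
Log2 fold change (ILC1 over NK) of each ligand with all 6 libraries (black, ± SE from edgeR), without ILC1 replicate 3 (orange), within NK replicate 3 and ILC1 replicates 1 and 2 (green) and the range over 17 alternatives (grey). Tnf spans 0.15 to 2.63 and Ltb crosses 0, while Tnfsf10 stays between 1.21 and 1.45.

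NK replicate 3 had the lowest level among the NK libraries for 7 of the 9 ligands, all but Lta and Tnf, and ILC1 replicate 3 the highest among the ILC1 libraries for 7, all but Tnfsf4 and Fasl. NK replicate 3 was the NK library nearest to the ILC1 mean for 3 ligands, Fasl, Tnfsf14 and Tnf. For the 5 ligands that were higher in every ILC1 library another NK library was nearest.

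Relative to one another, the ligand mRNAs were made up differently in the cell types. Per kilobase of exon, Fasl took 14.1, 12.9 and 7.75% of the summed level of the 9 ligands in ILC1 replicates 1 to 3, against 31.6, 28.0 and 29.6% in NK replicates 1 to 3. Lta took 8.48, 7.76 and 5.67% in ILC1s, against 1.50, 2.44 and 2.42% in NK cells. The summed level itself was 280.1, 271 and 453 CPM per kilobase in ILC1s, against 306, 349 and 222 CPM per kilobase in NK cells, and overlapped. Both shares were separated between the groups, and they depend on one another because the shares of a library add up to a fixed total. In ILC1s the order of mean levels per kilobase was Ltb, Tnf, Fasl, Tnfsf10, Lta, Tnfsf14, Tnfsf11, Tnfsf4 and Tnfsf8, where Ltb and Tnf, Tnf and Fasl, Tnfsf10 and Lta, and Tnfsf14 and Tnfsf11 overlapped. In NK cells it was Ltb, Fasl, Tnfsf14, Tnf, Tnfsf10, Lta, Tnfsf8, Tnfsf11 and Tnfsf4, and of these neighbours Fasl and Tnfsf14, and Tnfsf10 and Lta, did not overlap.

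**Figure D3:**
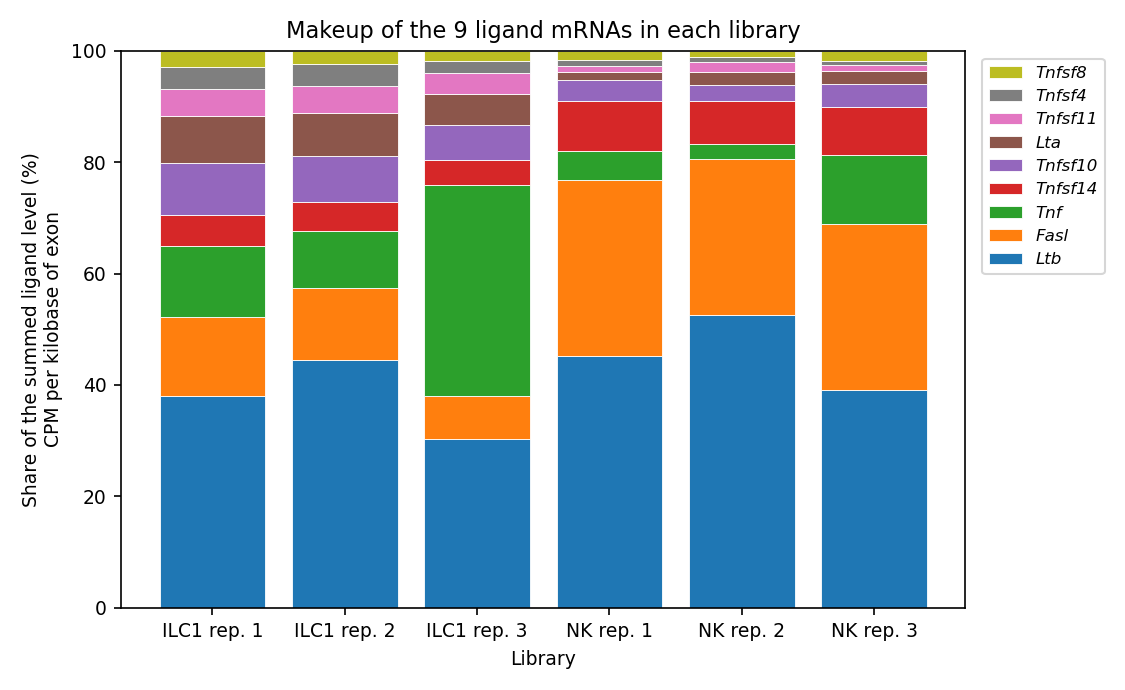
Share of each ligand in the summed level of the 9 ligands (%, from CPM per kilobase of exon) in every library, with ILC1 libraries left and NK libraries right. Fasl takes 7.75 to 14.1% in ILC1 libraries and 28.0 to 31.6% in NK libraries, and Tnf takes 37.9% in ILC1 replicate 3.

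Likeness of profiles was measured as the root mean square difference of centred log2 CPM over the 6 libraries, against 8842 genes with a mean of at least 10 CPM. The nearest pair among the ligands was Tnfsf11 and Lta at 0.243, followed by Tnfsf10 and Tnfsf8 at 0.295. The farthest was Tnf and Fasl at 1.83. The gene nearest to both Tnfsf11 (0.242) and Tnfsf4 (0.264) was Lag3, an inhibitory receptor gene. Lta was nearest to Klk8 (0.185), a kallikrein protease gene, and Camk4 (0.206), a calmodulin-dependent kinase gene, with Tnfsf11 next. Tnfsf10 was nearest to Avil (0.149), followed by Gpr183 (0.177), an oxysterol receptor gene, and Jup (0.181). Fasl was nearest to Tspan13 (0.0197), a tetraspanin gene, followed by the kinase gene Jak1 (0.0698) and the adhesion gene Icam2 (0.0823). Tnf was nearest to Cdkn1a (0.193), Tnfsf14 to Dapp1 (0.0360), Ltb to Tle5 (0.0887) and Tnfsf8 to Hopx (0.113).

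Of 9 other TNF superfamily ligands, 4 passed the low-count filter and 0 of them edgeR's test. The unadjusted edgeR p was under 0.05 for 1, DESeq2 called the same gene higher and limma-voom called 0. Tnfsf9, which encodes 4-1BBL, was at 17.5, 15.7 and 63.0 CPM in ILC1s, against 4.30, 1.44 and 10.5 CPM in NK cells. Its log2 fold change was 2.56 ± 0.92 (edgeR adjusted p = 0.286, DESeq2 adjusted p = 0.00828). Like Tnf it was highest in ILC1 replicate 3. The BAFF gene Tnfsf13b was also highest there, at 8.64 CPM, against 1.17 CPM or less elsewhere. Tnfsf12, which encodes TWEAK, was at 8.96, 7.94 and 16.1 CPM in ILC1s and at 13.2, 20.3 and 10.7 CPM in NK cells, and overlapped. Cd40lg, Cd70, Tnfsf15, Tnfsf18 and Eda did not pass the filter.

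The receptors of the 9 ligands were also measured in these cells, 12 of 12 passing the filter and 0 of 12 edgeR's test. The unadjusted edgeR p was under 0.05 for Ltbr alone, which DESeq2 also called higher, limma-voom called 0, and the median log2 fold change was 0.65. The lymphotoxin beta receptor gene Ltbr was at 19.1, 23.3 and 64.0 CPM in ILC1s, against 6.24, 3.08 and 12.4 CPM in NK cells (2.29 ± 0.70, edgeR adjusted p = 0.248, DESeq2 adjusted p = 0.00399). The groups did not overlap. The highest ILC1 value was in ILC1 replicate 3, and the highest NK value in NK replicate 3, the matrix-rich NK library. The part of RNA from other cells in the Ltbr values was not tested. Of the TNF receptors, Tnfrsf1b was at 298, 260 and 454 CPM in ILC1s and 452, 446 and 298 CPM in NK cells, and Tnfrsf1a at 56.8, 59.7 and 212 CPM in ILC1s and 41.5, 69.5 and 54.0 CPM in NK cells. Both overlapped between the groups. The TRAIL decoy receptor gene Tnfrsf23 was at 15.9, 14.8 and 33.2 CPM in ILC1s, against 10.3, 5.44 and 13.3 CPM in NK cells (edgeR adjusted p = 0.317). The RANK gene Tnfrsf11a reached 27.1 CPM in ILC1 replicate 3 and 4.59 CPM or less elsewhere, and the OX40 gene Tnfrsf4 stayed at 3.40 CPM or less in every library. The TRAIL receptor gene Tnfrsf10b was at 12.0, 11.5 and 3.71 CPM in ILC1s and 1.65, 1.44 and 9.37 CPM in NK cells, highest in the 3 matrix-rich libraries. Fas, which encodes the FasL receptor, lay between 2.98 and 8.17 CPM over all 6 libraries, with overlap.

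Of 6 genes for ligand shedding, 0 passed edgeR's test. Unadjusted edgeR p-values were under 0.05 for Rhbdf2 (higher) and Sppl2b (lower), DESeq2 called Rhbdf2 higher and limma-voom called 0. Rhbdf2, which encodes iRhom2, the partner that carries the TNF-releasing protease ADAM17 to the cell surface, was at 28.3, 25.0 and 81.5 CPM in ILC1s, against 15.7, 17.6 and 16.8 CPM in NK cells (1.43 ± 0.48, edgeR adjusted p = 0.274, DESeq2 adjusted p = 0.0383). The intramembrane protease gene Sppl2b was at 43.9, 39.2 and 41.3 CPM in ILC1s, against 55.0, 59.7 and 46.0 CPM in NK cells (edgeR adjusted p = 0.301). Its relative Sppl2a was at 123, 118 and 219 CPM in ILC1s and 117, 116 and 106 CPM in NK cells. Adam10, which encodes a sheddase of several surface proteins, was at 122, 108 and 194 CPM in ILC1s and 127, 128 and 116 CPM in NK cells.

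Of 7 genes for decay or stability of such mRNAs, 0 passed edgeR's test. Only Zfp36l2 had an unadjusted edgeR p under 0.05, DESeq2 called it lower and limma-voom called 0. Zfp36l2, a zinc-finger protein gene of the tristetraprolin family that binds AU-rich elements, was at 1302, 979 and 838 CPM in ILC1s, against 1967, 1862 and 1816 CPM in NK cells (-0.86 ± 0.19, edgeR adjusted p = 0.159, DESeq2 adjusted p = 0.0101). Every ILC1 library was below every NK library. Tristetraprolin itself, Zfp36, was at 666, 592 and 1740 CPM in ILC1s and 648, 514 and 895 CPM in NK cells, highest in ILC1 replicate 3. Elavl1, which encodes the stabilising factor HuR, was at 129, 120 and 92.4 CPM in ILC1s and 84.3, 92.4 and 110 CPM in NK cells.

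Of 14 receptor signalling genes, 0 passed edgeR's test or were called by DESeq2 or limma-voom, and 2, Traf1 and Birc3, were lower with an unadjusted edgeR p under 0.05. The median log2 fold change was -0.25, and 13 of 14 were negative, where 6365 of all 14475 genes tested were. In every ILC1 library 4 (Traf1, Traf5, Birc3 and Map3k14) were lower than in every NK library, where 13.3% of all genes were. The groups overlapped for the other 10. The adaptor gene Traf1 was at 229, 206 and 189 CPM in ILC1s, against 308, 308 and 254 CPM in NK cells (-0.48 ± 0.15, edgeR adjusted p = 0.239). Birc3, which encodes the ubiquitin ligase cIAP2, was at 96.2, 86.8 and 121 CPM in ILC1s, against 135, 139 and 129 CPM in NK cells, and the kinase gene Map3k14, NIK, at 64.6, 63.0 and 64.8 CPM in ILC1s, against 82.8, 100.7 and 67.2 CPM in NK cells. Tnfaip3, which encodes the inhibitor A20, was at 1930, 1509 and 1601 CPM in ILC1s and 1573, 1528 and 1943 CPM in NK cells, with overlap.

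**Figure D4:**
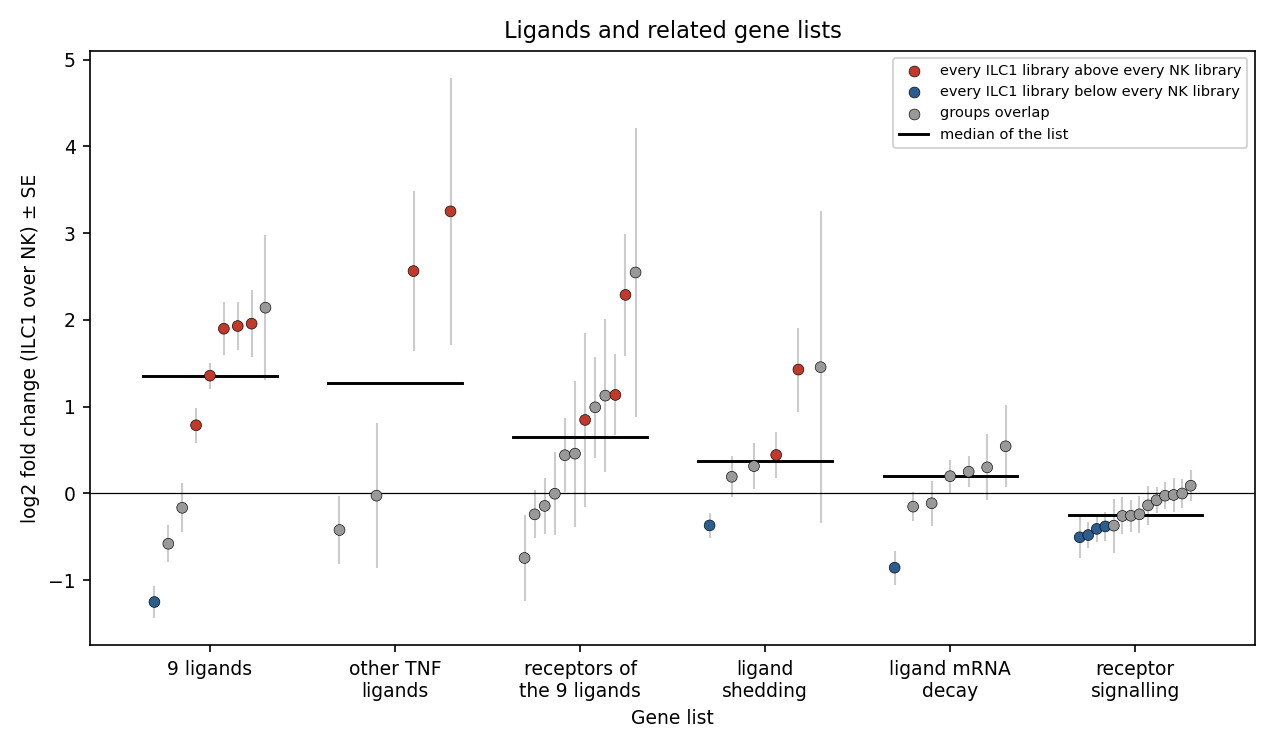
Log2 fold change (ILC1 over NK, ± SE from edgeR) of every tested gene of the 9 ligands and 5 related lists, with the median of each list as a line, red where every ILC1 library lies above every NK library, blue where every one lies below, and grey where groups overlap. The ligands range from -1.25 to 2.14, and the receptor signalling genes lie close to 0 with a median of -0.25.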

How the data were processed

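Libraries were made with oligo(dT) selection and random-hexamer priming and sequenced as single-end reads of 50 bases, per the labels' protocols. The authors deposited raw counts per gene symbol for 6 libraries, and the submitters' processing notes name HISAT2 2.1.0, featureCounts 2.0.1 and GRCm38. The sources used here do not give the annotation, the strand setting or the treatment of multi-mapping reads. PCR copies are included in the counts. A gene with 0 counts could still be present at up to 3 counts, 0.144 to 0.174 CPM, from counting error alone.

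The counts were analysed with edgeR 4.0.16 in R 4.3.3 (TMM, filterByExpr, robust quasi-likelihood fit with cell type as the only term, Benjamini-Hochberg adjustment over 14475 genes, threshold 0.05). Fold changes are ILC1 over NK on the log2 scale. DESeq2 1.42.0 and limma-voom (limma 3.58.1) served as alternatives. Exon lengths and positions come from GENCODE M21, with overlapping exons merged. With 3 against 3 libraries an exact permutation test cannot go below p = 0.1. The fit was tested on simulated counts, with each gene drawn independently of the others. Differences that many genes share within a library, as in the matrix-rich libraries, were therefore not modelled. With each gene's spread taken from these data, it recovered 4 of 50 genes changed 2-fold and 19 of 50 changed 4-fold. It recovered 39 of 50 changed 8-fold, and it called 2 unchanged genes. Library pairs were compared by the median of a chi-square statistic per gene, over genes with at least 20 counts in the pair. No pair had identical counts. The lowest median was 2.42, for ILC1 replicates 1 and 2 (Pearson's r of 0.989), where counting error alone would give 0.455.

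The members, lists, alternatives and naming rule were chosen with earlier results of these data known. All 9 members are named. Of each related list up to 3 genes with the smallest p and up to 2 with the highest level are named, with further receptors of the members, and for each member up to 3 genes of the most similar profile. Individual markers of other cells were picked by their values. One marker of other cells is not reported here. The alternative without NK replicate 3 and ILC1 replicate 3 was chosen after seeing the data.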

Additional observations from a re-analysis of the deposited data

How the results depend on the processing

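The library-set term separates NK replicates 1 and 2, the 3 matrix-rich libraries, and ILC1 replicate 3. Only the matrix-rich set holds both cell types. The fold changes with this term therefore rest on NK replicate 3 against ILC1 replicates 1 and 2, as in the matrix-rich fit. Over 17 alternatives the 9 ligands kept the sign of their log2 fold change, except Ltb, which was 0.38 with the library-set term, 0.34 in NK replicate 3 with ILC1 replicates 1 and 2 alone, and -0.40 to 0.11 with single libraries left out. No ligand passed with RLE or upper-quartile scaling, a minimum mean of 5 CPM, limma-voom, the library-set term or a prior count of 0.5. The next 4 settings were no low-count filter, DESeq2, the matrix-rich libraries alone and the fit without NK replicate 3 and ILC1 replicate 3. Of the 9 ligands, 5 were called with no low-count filter, 6 with DESeq2 and 7 without both NK replicate 3 and ILC1 replicate 3. With single libraries left out, 0 to 3 were called (3 without NK replicate 3). All genes called numbered 12 with all libraries, against 138, 808, 1891 and 4458 in the first 4 of these settings, 33 with the library-set term and 0 to 449 with single libraries left out. Related genes called numbered 4 with DESeq2, 10 in the matrix-rich libraries and 17 without both replicates 3. The median log2 fold change of the ligands was 0.85 with the library-set term, 0.81 in the matrix-rich libraries and 0.82 to 1.45 with single libraries left out, lowest without ILC1 replicate 3, where Tnf is the middle ligand. The causes were not tested. The matrix-rich fit rests on 1 NK library that is assumed to vary like the ILC1s. Its ligand calls are therefore left out, and no conclusion is drawn from its counts of genes called. Only its fold changes are used. With CPM not divided by length, 1 of 9 ligands in ILC1s and 4 of 9 in NK cells kept its place in the order of levels, and 24 of 27 most similar genes were shared at a minimum of 5 CPM.

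Replicates carry the numbers 1 to 3 in either cell type, and no label ties a number to a mouse or a day. Deviations from the group means correlated at -0.363, -0.355 and -0.564 for same-numbered libraries, and none of the 6 correlated best with its own. NK replicate 3 correlated at 0.486 and 0.567 with ILC1 replicates 1 and 2, the other matrix-rich libraries. With 3 libraries per group the deviations cancel within each group, so this check cannot decide whether same-numbered libraries were paired. With a replicate block 0 genes and 0 ligands passed (1584 genes at an unadjusted edgeR p under 0.05).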
